A study of Rattus norvegicus with 38 samples.

Results

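The 6 genes described here mark the identity of kidney tubule cells: Slc34a1, Slc22a6, Aqp1, Hnf4a, Kl and Egf. They were taken by their Ensembl identifiers (ENSRNOG00000015262, ENSRNOG00000018215, ENSRNOG00000011648, ENSRNOG00000008895, ENSRNOG00000001092 and ENSRNOG00000053979, in that order), and all 6 were found among the 30207 genes of the deposited table. All 6 also passed the filter on low values that left 12599 genes for testing. The symbols come from the list of members, since no table used here pairs the other identifiers with gene names. Kidney RNA of 38 rats was sequenced from its 3' ends after 7 weeks. Vehicle was given to 8 animals (numbers 1 to 8) and anti-Fx1A to 10 animals (9 to 18) at 2.5 mL/kg. This antiserum is raised against brush border antigens of proximal tubule cells. L-NAME, which blocks nitric oxide synthesis, went to 10 animals (19 to 28) at 20 mg/kg per day. The combination group of 10 animals (29 to 38) had L-NAME at 20 mg/kg per day with anti-Fx1A at 2.0 mL/kg, a lower dose than in the antiserum group. The labels used here give no strain, sex, age or batch. Numbers follow the groups, so any effect of processing order and that of treatment cannot be told apart.

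The proximal tubule reclaims most of what the glomerulus filters and secretes organic acids, and its cells keep this character under a set of transcription factors that includes HNF4A. Klotho and EGF are made mainly further along the nephron, Klotho in the distal tubule and EGF in the thick ascending limb and the early distal tubule. Loss of these transcripts is widely used as a sign that tubule cells are injured or have dedifferentiated. In whole kidney RNA, fewer cells of a type and less RNA per cell cannot be told apart.

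Of the 6 genes, Egf alone passed the test, and it passed in a single comparison. Egf was 0.462 times its vehicle level in the combination, while the mean levels of the transporters, of Hnf4a and of Kl did not pass in any comparison. Some single treated animals were low in several of these genes at once. Anti-Fx1A animal 10, L-NAME animal 23 and combination animal 29 lay below every vehicle animal in all 6 genes, and L-NAME animal 25 and combination animal 35 in 5 of the 6. These animals were picked because their values were low. The share of all genes that lay below every vehicle animal in the same libraries was not counted.

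Values below are the authors' variance-stabilised log2 values, on which a gene with no read stands at 4.32 and differences between genes with few reads are compressed. Libraries held 4120902 to 7728848 reads, and these were recovered from the deposited values. Between 18.2 and 38.4% of a library's reads fell to its 10 most abundant genes. In 3 libraries, vehicle animal 1, L-NAME animal 25 and anti-Fx1A animal 10, the limma weights were lowest, at 0.279, 0.294 and 0.2996. Differences from vehicle that these libraries moved by over 1.5 times are given with and without them below.

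**Figure D1:**
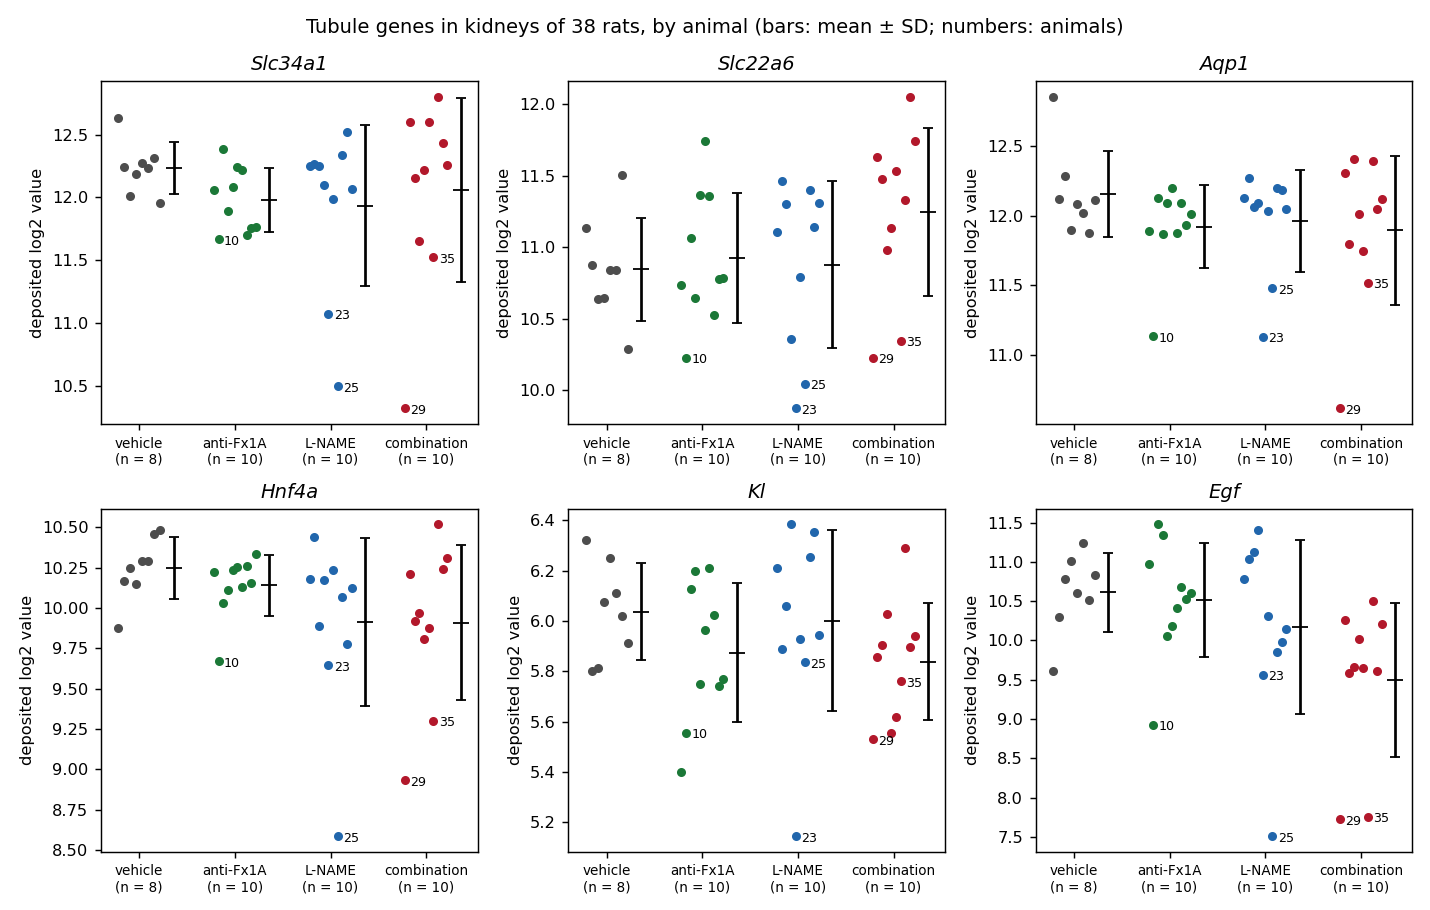
Deposited log2 values of the 6 genes (y axis, scale differs between panels) in each of 38 animals (points) by treatment group (x axis), with mean ± SD as bars. Numbers mark animals 10, 23, 25, 29 and 35, which lie at the bottom of their groups in most panels, for example L-NAME animal 25 at 7.51 and combination animal 29 at 7.72 for Egf.

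Slc34a1 encodes NaPi-IIa, the sodium phosphate cotransporter of the proximal tubule brush border. With vehicle its lowest, median and highest values were 11.96, 12.24 and 12.63, and with anti-Fx1A they were 11.67, 11.98 and 12.38. With L-NAME they were 10.50, 12.17 and 12.52, and in the combination 10.32, 12.24 and 12.80. The medians therefore lay close together while the low end reached much further down in the groups with L-NAME, and all groups overlapped. The combination mean of 12.06 ± 0.73 (SD, n = 10) was 0.17 below the vehicle mean of 12.23 ± 0.21 (n = 8; SE 0.24, 95% interval -0.66 to 0.31, limma adjusted p = 0.59). Anti-Fx1A alone was 0.25 below vehicle (SE 0.24, adjusted p = 0.686), with 5 of 10 animals under the vehicle range. With only vehicle and anti-Fx1A in the fit the SE was 0.11 (limma adjusted p = 0.32). L-NAME alone was 0.30 below (SE 0.24, adjusted p = 0.427), with 2 of 10 under the range. Without L-NAME animal 25 that difference was -0.14, and without the 3 low-weight libraries it was -0.080 and that of anti-Fx1A -0.16. Without combination animal 29 the difference in the combination was 0.019, and without animal 35 it was -0.115. Vehicle stood highest, followed by the combination, anti-Fx1A and L-NAME, and no neighbours in that order differed beyond their spread (adjusted p of 0.59, 0.829 and 0.96). Here and for the genes below, that spread is the limma estimate shared by all 4 groups, although the SD differed between groups.

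Slc22a6 encodes OAT1, the basolateral organic anion transporter through which proximal cells take up acids and many drugs for secretion. Its lowest, median and highest values were 10.29, 10.84 and 11.50 with vehicle and 10.23, 10.78 and 11.74 with anti-Fx1A. They were 9.87, 11.12 and 11.46 with L-NAME and 10.23, 11.40 and 12.05 in the combination. Unlike the other 5 genes, Slc22a6 had its highest mean in the combination, where 4 of 10 animals lay above the vehicle range and 1 below it. The difference from vehicle was 0.40 (SE 0.23, 95% interval -0.071 to 0.87, limma adjusted p = 0.175). It passed with library weights (0.56, adjusted p = 0.0246) and after adjustment for the read share of the 10 most abundant genes (0.49, adjusted p = 0.0332). Over 28 alternatives its adjusted p ranged from 0.0246 to 0.311. Anti-Fx1A alone differed from vehicle by 0.078 (adjusted p = 0.927) and L-NAME alone by 0.034 (adjusted p = 0.941). Both are near 0 and moved with many single animals, and without the 3 low-weight libraries they were 0.197 and 0.17. The order was combination, anti-Fx1A, L-NAME and vehicle, with no difference between neighbours beyond their spread (adjusted p of 0.299, 0.959 and 0.941).

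Aqp1 encodes the water channel of the proximal tubule and the descending thin limb, which is also made by endothelium of the descending vasa recta. Its values were 11.88, 12.10 and 12.85 with vehicle (lowest, median, highest), 11.13, 11.97 and 12.20 with anti-Fx1A, 11.13, 12.07 and 12.27 with L-NAME and 10.62, 12.03 and 12.40 in the combination. The highest animal of all was vehicle animal 1, and no treated animal exceeded it. Animals under the vehicle range numbered 3 with anti-Fx1A, 2 with L-NAME and 4 in the combination. The differences from vehicle were -0.23 with anti-Fx1A (SE 0.18, limma adjusted p = 0.603), -0.19 with L-NAME (adjusted p = 0.501) and -0.26 in the combination (95% interval -0.62 to 0.10, adjusted p = 0.261). These differences leaned on vehicle animal 1, without which they were -0.13, -0.093 and -0.16. Without the 3 low-weight libraries they were -0.046, -0.039 and -0.16. Leaving out the lowest animal of each group also shrank them, to -0.15 without anti-Fx1A animal 10, -0.1002 without L-NAME animal 23 and -0.12 without combination animal 29. From vehicle downward the order was L-NAME, anti-Fx1A and the combination, and no neighbours differed beyond their spread (adjusted p of 0.501, 0.953 and 0.931).

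Hnf4a encodes the nuclear receptor that maintains the proximal tubule programme, with many transporter genes among its targets in liver and kidney of the mouse. With vehicle its lowest, median and highest values were 9.88, 10.27 and 10.48, and with anti-Fx1A 9.67, 10.19 and 10.34. With L-NAME they were 8.59, 10.09 and 10.44, and in the combination 8.93, 9.94 and 10.52. Most treated animals lay under the vehicle median: 9 of 10 with anti-Fx1A, 9 of 10 with L-NAME and 8 of 10 in the combination, although the ranges overlapped throughout. Hnf4a was 0.34 lower than vehicle in the combination (SE 0.18, 95% interval -0.69 to 0.018, limma adjusted p = 0.129) and 0.33 lower with L-NAME alone (SE 0.18, adjusted p = 0.206). With vehicle animal 1, L-NAME animal 25 and anti-Fx1A animal 10 left out, the combination passed against vehicle (-0.39, SE 0.14, adjusted p = 0.0232). Without vehicle animal 1 alone the difference was also -0.39 but did not pass. L-NAME animal 25 and anti-Fx1A animal 10 are in neither group compared, and they enter only through the shared SE. With any single animal left out the combination did not pass (adjusted p of 0.0662 to 0.282). The difference was smallest without combination animal 29, at -0.23 (adjusted p = 0.282). Over 28 alternatives the adjusted p of the combination against vehicle ranged from 0.0232 to 0.282. Anti-Fx1A alone was 0.10 lower (adjusted p = 0.854), with -0.16 without vehicle animal 1 and -0.052 without anti-Fx1A animal 10. The difference with L-NAME alone was -0.19 without L-NAME animal 25 (adjusted p = 0.443). The order was vehicle, anti-Fx1A, L-NAME and combination, and the last pair differed by 0.0024, with a 95% interval of -0.34 to 0.33. The neighbours did not differ beyond their spread (adjusted p of 0.854, 0.641 and 0.997).

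HNF4A and HNF1 proteins bind DNA upstream of many proximal tubule genes. Windows of 250 bases before to 50 after the start were found for 5 of the 6 genes in RefSeq (build GRCr8), and Slc22a6 had none in the table. They were searched on both strands for the HNF1 motif GTTAAT, which 7.45% of 33469 rat promoter windows hold, and for the HNF4 motifs AAAGTCC or CAAAGG, of which 23.4% hold at least 1. The window of Slc34a1 and the downstream of 2 windows of Hnf4a are shown since both hold GTTAAT matches. The window of Egf is shown because Egf is the gene that passed the test. Capitals mark the matches, and lines run 5' to 3' on the strand of the gene.
Slc34a1, chr17:9238934-9239233, minus strand: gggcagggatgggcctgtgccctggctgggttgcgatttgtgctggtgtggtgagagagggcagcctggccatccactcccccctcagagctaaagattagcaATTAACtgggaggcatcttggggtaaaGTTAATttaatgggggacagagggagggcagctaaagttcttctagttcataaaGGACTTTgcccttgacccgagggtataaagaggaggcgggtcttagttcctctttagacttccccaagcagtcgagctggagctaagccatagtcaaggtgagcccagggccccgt
Hnf4a, chr3:172641586-172641885, plus strand: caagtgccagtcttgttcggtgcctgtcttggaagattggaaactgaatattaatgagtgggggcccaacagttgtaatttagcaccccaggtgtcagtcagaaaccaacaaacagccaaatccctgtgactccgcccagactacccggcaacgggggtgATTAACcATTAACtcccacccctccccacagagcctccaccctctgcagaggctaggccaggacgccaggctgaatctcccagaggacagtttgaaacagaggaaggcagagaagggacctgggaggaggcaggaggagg
Egf, chr2:220976248-220976547, minus strand: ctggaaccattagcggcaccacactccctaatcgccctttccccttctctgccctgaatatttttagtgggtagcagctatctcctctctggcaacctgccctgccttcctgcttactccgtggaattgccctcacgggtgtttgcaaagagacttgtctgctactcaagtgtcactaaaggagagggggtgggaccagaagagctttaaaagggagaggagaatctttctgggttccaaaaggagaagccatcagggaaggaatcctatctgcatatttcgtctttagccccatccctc
In Slc34a1 the GTTAAT matches begin at -147 (as ATTAAC on the gene's strand) and -120 from the start, and an AAAGTCC match (as GGACTTT) begins at -66. In Hnf4a, ATTAAC occurs at -90 and -83. The window of Egf holds neither motif, nor do the window of Kl and the upstream window of Hnf4a, and that of Aqp1 holds 1 CAAAGG match at -55 on the opposite strand. A match says that these letters occur there, and the matches do not overlap.

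Kl encodes Klotho, the co-receptor that lets FGF23 act on the tubule to lower phosphate reabsorption and vitamin D activation. It was covered by 8 to 52 reads per library (median 28.5), against at least 179 for each of the other 5 genes, so its values carry the most counting error and the deposited scale understates its differences. Its reads ran from 22 to 45 with vehicle (median 30), from 10 to 41 with anti-Fx1A (27), from 8 to 52 with L-NAME (30) and from 16 to 52 in the combination (27). All groups overlapped. On the log2 scale the lowest, median and highest values were 5.80, 6.05 and 6.32 with vehicle, 5.40, 5.87 and 6.21 with anti-Fx1A, 5.15, 6.003 and 6.38 with L-NAME and 5.53, 5.88 and 6.29 in the combination. Animals under the vehicle range numbered 5 with anti-Fx1A, 1 with L-NAME and 4 in the combination. The combination differed from vehicle by -0.20 (SE 0.13, 95% interval -0.46 to 0.061, limma adjusted p = 0.227), anti-Fx1A by -0.16 (adjusted p = 0.618) and L-NAME by -0.037 (adjusted p = 0.88). Voom on the recovered reads gave larger differences, of -0.38 (adjusted p = 0.285), -0.31 (0.674) and -0.13 (0.779), which did not pass either. Without the 3 low-weight libraries the anti-Fx1A difference was -0.087 and that of L-NAME 0.023, and the latter was near 0 and turned with single animals. The order was vehicle, L-NAME, anti-Fx1A and combination, and no neighbours differed beyond their spread (adjusted p of 0.88, 0.735 and 0.862).

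Egf encodes the precursor of epidermal growth factor, a membrane protein of the thick ascending limb and early distal tubule from which the growth factor is released into urine. With vehicle its lowest, median and highest values were 9.61, 10.69 and 11.24, and with anti-Fx1A 8.92, 10.56 and 11.48. With L-NAME they were 7.51, 10.23 and 11.40, and in the combination 7.72, 9.65 and 10.50. In the combination all 10 animals lay under the vehicle median and 4 of them under the lowest vehicle animal, so that the groups still overlapped. In RPM, which scales reads to library depth, the median was 273 for vehicle, 234 for the antiserum, 191 for L-NAME and 133 for the combination.

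Egf fell by 1.12 on the log2 scale in the combination against vehicle (SE 0.41, 95% interval -1.94 to -0.29, limma adjusted p = 0.0303, lower in 10 of 10 animals than the vehicle median). Of all genes tested, 0.73% had a lower fold change in this comparison. By the difference over its SE, in either direction, 3881 of the 12599 genes ranked above Egf. The SD of Egf was larger than that of 95.9% of genes with vehicle and of 99.6% in the combination. The call depended on single animals. It was lost without vehicle animal 4 (-1.06, adjusted p = 0.0545) or 6 (-1.03, 0.0597) and without combination animal 29 (-0.92, 0.0688) or 35 (-0.92, 0.0693), and the adjusted p ran from 0.00252 to 0.0693 over 28 alternatives. Voom on the recovered reads gave -1.18 (adjusted p = 0.0343). Leaving out those 3 low-weight libraries gave -1.26 (adjusted p = 0.00252).

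Against anti-Fx1A alone, Egf in the combination was lower by a similar amount but the difference did not pass (-1.02, SE 0.38, 95% interval -1.80 to -0.24, limma adjusted p = 0.0558). All 10 combination animals lay under the anti-Fx1A median, and 2 under its range. This difference passed without anti-Fx1A animal 10, itself the lowest of its group at 8.92 (-1.20, adjusted p = 0.0219). It also passed without combination animal 30 (-1.11, 0.0469), 36 (-1.13, 0.0385) or 38 (-1.10, 0.045), and the adjusted p ran from 0.0042 to 0.123 over 30 alternatives. Against L-NAME alone the difference was -0.67 (SE 0.38, 95% interval -1.45 to 0.10, adjusted p = 0.393), and -0.97 when the 3 low-weight libraries were left out (adjusted p = 0.0418). Its adjusted p ranged from 0.0418 to 0.623 over 30 alternatives. L-NAME animal 25, the lowest of all 38 at 7.51, is among those 3.

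The single treatments differed from vehicle in Egf by -0.095 with anti-Fx1A (95% interval -0.92 to 0.73, limma adjusted p = 0.948) and by -0.44 with L-NAME (-1.27 to 0.38, adjusted p = 0.499). These intervals still include a fall as large as a log2 value of -0.92 with the antiserum and -1.27 with L-NAME. Without L-NAME animal 25 the L-NAME difference was -0.15 (adjusted p = 0.837), and without the 3 low-weight libraries it was -0.29 (adjusted p = 0.612). The anti-Fx1A difference was 0.082 without anti-Fx1A animal 10, -0.24 without vehicle animal 1 and -0.061 without the 3 libraries. The interaction, which asks whether the combination differs from the sum of the single effects, was -0.58 for Egf (SE 0.56, adjusted p = 0.784). Since anti-Fx1A was given at 2.0 mL/kg in the combination and at 2.5 mL/kg alone, dose is part of this contrast. It is also part of the combination against anti-Fx1A. The order of means was vehicle at 10.61 ± 0.50 (SD, n = 8), anti-Fx1A at 10.52 ± 0.72, L-NAME at 10.17 ± 1.11 and the combination at 9.496 ± 0.98 (n = 10 each). No neighbours in this order differed beyond their spread (adjusted p of 0.948, 0.774 and 0.393).

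**Figure D2:**
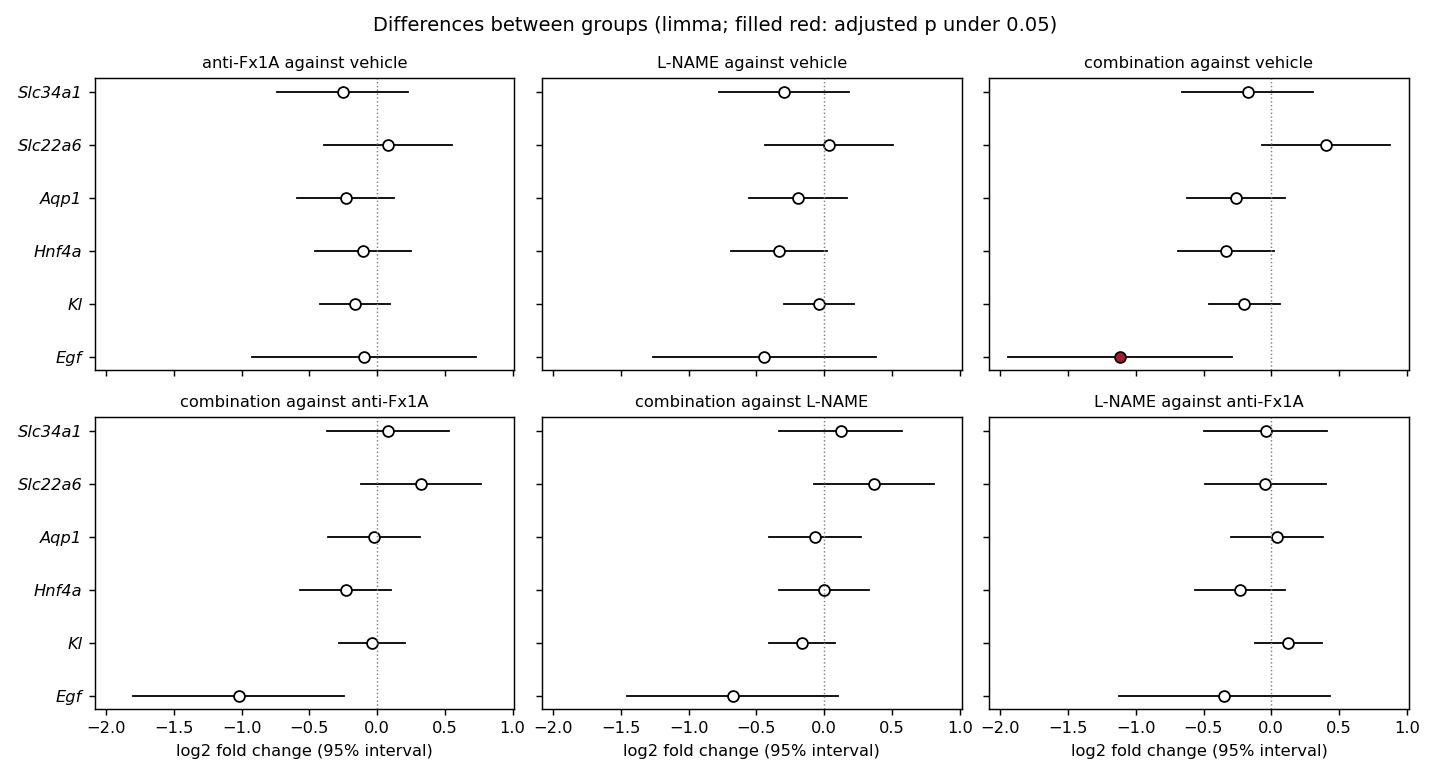
Log2 fold changes (x axis) of the 6 genes (y axis) in 6 comparisons, with 95% intervals from limma as lines. The filled red point is Egf in the combination against vehicle at -1.12, the only difference with an adjusted p under 0.05, and the intervals of Egf are the widest in every panel.

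The number of the 6 genes called can be read against the share of all genes called. In the combination against vehicle 1 of 6 was called, and it was lower, where 35.8% of the 12599 genes were called and 17.4% were called lower. For L-NAME against vehicle 0 of 6 were called, where 14.1% of genes were, and for anti-Fx1A against vehicle 0 of 6, where 1.1% were. For the combination against anti-Fx1A 0 of 6 were called against 19.3% of genes, for the combination against L-NAME 0 against 1.2%, and for L-NAME against anti-Fx1A 0 against 0.381%. For the interaction 0 of 6 were called, where 0% of genes were at the adjusted threshold and 1102 of 12599 had an unadjusted p under 0.05. At an unadjusted p under 0.05, 1 of the 6 passed in the combination against vehicle, 1 in the combination against anti-Fx1A and 0 in each of the other 5 comparisons. Voom gave the same counts of called genes among the 6 in all 7 comparisons. The median fold change of the 6 genes against vehicle was -0.13 with anti-Fx1A, -0.24 with L-NAME and -0.23 in the combination, beside 0.0013, -0.013 and -0.013 over all genes tested. These comparisons share the vehicle animals.

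Spread between animals was also compared. The SD of Slc34a1 was 0.21 in vehicle, 0.25 in anti-Fx1A, 0.64 in L-NAME animals and 0.73 in the combination, which is 3.11 and 3.57 times the vehicle value in the groups with L-NAME. For Hnf4a the SD was 0.19 with vehicle and with anti-Fx1A, 0.52 with L-NAME and 0.48 in the combination. For Egf it was 0.50, 0.72, 1.11 and 0.98 in the same order. The median SD of all genes tested differed little, at 0.22 for vehicle and the combination and 0.23 for both single treatments. In the groups with L-NAME the other 3 genes departed less from the vehicle spread. With anti-Fx1A alone this did not hold, as Kl had 1.44 times the vehicle SD and Hnf4a 0.978 times. Slc22a6 had 1.26 to 1.63 times the vehicle SD, Aqp1 0.966 to 1.72 times and Kl 1.22 to 1.88 times over the 3 treated groups. In the combination 99% of genes had a smaller SD than Slc34a1, where 41.2% did with vehicle. The shares in the combination and with vehicle were 97.6 and 87.9% for Slc22a6, 96.5 and 79.8% for Aqp1 and 95.1 and 35% for Hnf4a. For Kl they were 57.5 and 34.6%, and for Egf 99.6 and 95.9%. None of the 18 comparisons of spread with vehicle passed an exact two-sided permutation test of the absolute deviations from the group median, a test chosen after the values were seen (lowest p = 0.07 for Slc34a1 in the combination, adjusted p = 0.529). Without its lowest animal, number 29, the SD of Slc34a1 in the combination was 0.43, and without animal 25 that of Hnf4a with L-NAME was 0.25.

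**Figure D3:**
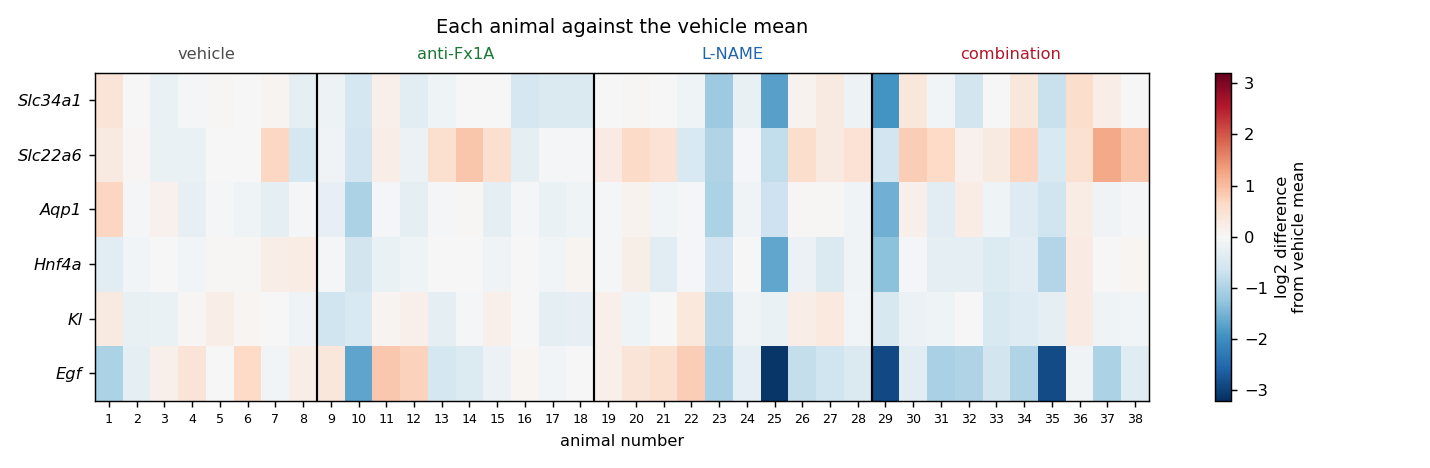
Difference of each animal (columns, ordered by number within group) from the vehicle mean for the 6 genes (rows), in log2 units by colour, blue being lower. Columns 10, 23, 25, 29 and 35 are blue in every row, with Egf at -3.10 in animal 25, -2.89 in animal 29 and -2.86 in animal 35.

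The low animals were low across genes of different segments. Combination animal 29 was the lowest of its group in all 6 genes, with differences from the vehicle mean of -1.91 for Slc34a1, -1.54 for Aqp1, -1.31 for Hnf4a and -2.89 for Egf. L-NAME animal 25 was 1 of the 2 lowest of its group in all 6 genes and stood at -1.73 for Slc34a1, -1.66 for Hnf4a and -3.10 for Egf. L-NAME animal 23 was also 1 of the 2 lowest in all 6 genes but had another profile, with -1.16 for Slc34a1, -0.97 for Slc22a6, -0.60 for Hnf4a and -1.05 for Egf. Anti-Fx1A animal 10 was the lowest of its group in all genes but Kl, where it was the second lowest, with -1.02 for Aqp1 and -1.69 for Egf. Combination animal 35 was the second lowest in 5 of the 6 genes, with -2.86 for Egf and -0.71 for Slc34a1. No vehicle animal was 1 of the 2 lowest of its group in more than 3 genes. The 10 most abundant genes held 18.2% of reads in animal 10, 24.6% in animal 23, 21.9% in animal 25, 25.8% in animal 29 and 21.1% in animal 35, where the group medians ran from 27.7 to 32.2%. Other libraries also had a share under that of animal 29, though none was as low as animal 10. None of the 6 genes lay under the vehicle range in anti-Fx1A animal 11 (20.96%) and L-NAME animals 21 (23.4%) and 22 (24.3%). Animal 11 had the highest Slc34a1 and Egf of its group. Anti-Fx1A animal 9 (23.3%) had 1 gene under that range. Anti-Fx1A animal 12 (25.7%) and combination animals 33 (24.4%) and 34 (25.7%) had 2 each. Whether composition lowered these genes was not tested.

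Across the 38 animals, with group means subtracted, the 6 genes varied together. Pearson's r was positive for all 15 pairs (0.328 to 0.827, median 0.614), and 13 pairs passed a two-sided permutation test within groups (100000 resamples, adjusted over the 15 pairs). With Spearman's rho 11 passed, and without the 2 animals farthest from the median of the gene named first 12 passed. Leaving out 2 animals keeps others of the low animals 10, 23, 25, 29 and 35. Whether these r rest on the low animals could therefore not be seen from it. Genes share each library's scaling and composition, which can move them together. The share of pairs among all genes tested that would be positive or pass was not counted. The counts here therefore do not show that varying together is particular to these 6 genes. Over the deposited values, with group means kept, the median r of each gene with all other genes ran from -0.0156 (Egf) to 0.0109 (Slc34a1).

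By Pearson's r over all 38 animals the closest pair was Hnf4a and Egf (r = 0.827, rho = 0.508, permutation p of 1e-05 for r, the smallest the resamples can give, and 0.00231 for rho; adjusted p = 7.5e-05 and 0.00577), which are made in different segments. Without the 2 animals farthest from the Hnf4a median r was 0.684 (adjusted permutation p = 0.00105). The proximal transporters Slc34a1 and Slc22a6 followed (r = 0.784, rho = 0.781, permutation p of 1e-05 for each, adjusted p = 7.5e-05 and 0.00015), and r was 0.758 without 2 animals, so that this pair was the closest by rho and without 2 animals. It also had the narrowest range between groups, from 0.73 to 0.831. Slc34a1 and Hnf4a gave r = 0.742 (permutation p = 0.00023, adjusted 0.000469) and rho = 0.383 (p = 0.0333, adjusted 0.0454), and r was 0.441 without 2 animals (adjusted permutation p = 0.0278). Slc34a1 and Egf gave r = 0.679 (permutation p = 0.00024, adjusted 0.000469) and rho = 0.373 (p = 0.0274, adjusted 0.0411), and 0.426 without 2 animals. The pairs that did not pass were Hnf4a with Kl (r = 0.328, adjusted permutation p = 0.0869) and Kl with Egf (r = 0.369, 0.0526), and the latter passed without 2 animals (r = 0.428, adjusted permutation p = 0.0153). Slc22a6 with Egf (r = 0.449, adjusted permutation p = 0.0138) did not pass by rho (0.108, adjusted 0.539) or without 2 animals (0.349, 0.0621). Slc22a6 with Kl (r = 0.423, adjusted permutation p = 0.016) likewise did not pass by rho (0.342, adjusted 0.0556) or without 2 animals (0.233, 0.186).

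**Figure D4:**
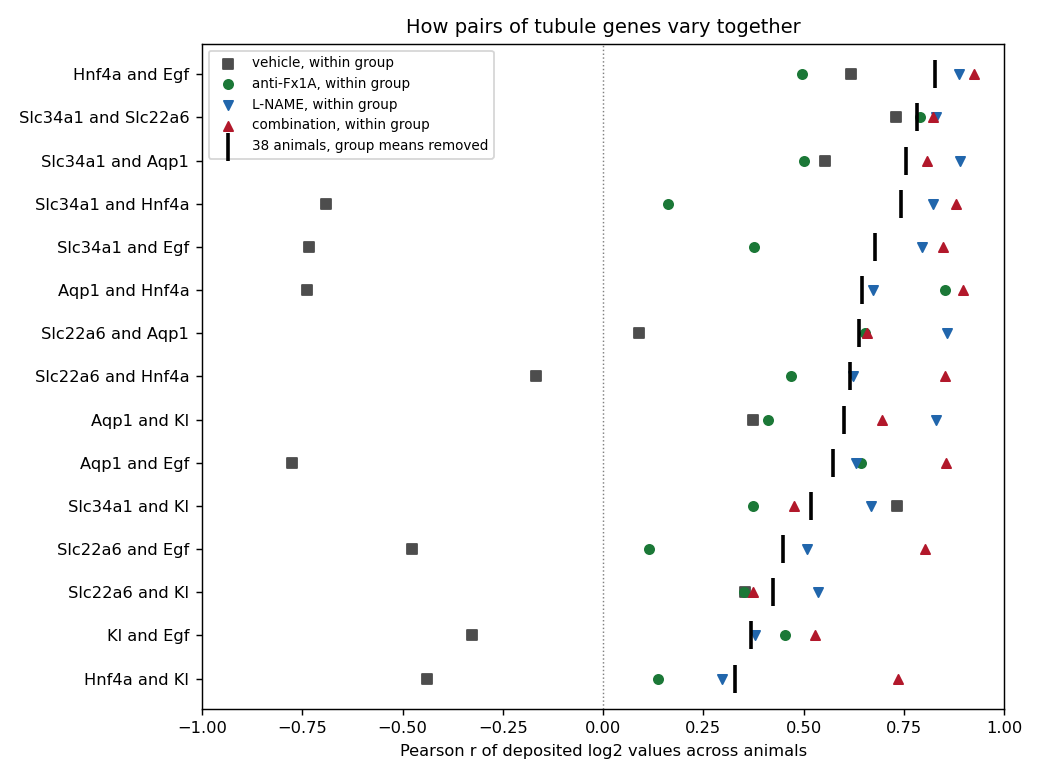
Pearson r across animals (x axis) for the 15 pairs of genes (y axis), within each group (coloured symbols, n = 8 or 10) and over 38 animals with group means removed (black bars). All symbols of the 3 treated groups lie above 0, while 8 of the 15 vehicle symbols lie below it, and without anti-Fx1A animal 10, 6 of the 15 anti-Fx1A values would lie below it too.

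Within each treated group all 15 pairs were positive, but with anti-Fx1A this rested on animal 10, without which 9 pairs were positive and 6 negative. With L-NAME and in the combination all 15 stayed positive whichever single animal was left out. But low animals 23 and 25 share the L-NAME group, and 29 and 35 the combination, so another low animal always remained. Whether these r rest on the low animals could therefore not be seen in this way. The median r was 0.454 with anti-Fx1A, 0.672 with L-NAME and 0.806 in the combination. With vehicle 7 of 15 pairs were positive and the median was -0.168, with r = -0.732 for Slc34a1 with Egf and -0.775 for Aqp1 with Egf. The difference between groups in r was not tested, and single animals moved it. Without vehicle animal 1, which had the highest Slc34a1, Aqp1 and Kl of its group and the lowest Hnf4a and Egf, those values were -0.259 and -0.153. Of the 15 vehicle pairs 6 were then positive and 9 negative, with a median r of -0.126. Without anti-Fx1A animal 10, r for Hnf4a with Egf in that group turned from 0.496 to -0.617. Without L-NAME animal 25 that pair stood at 0.560 in its group (0.888 with it), and without combination animal 29 at 0.870 (0.924 with it).

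**Figure D5:**
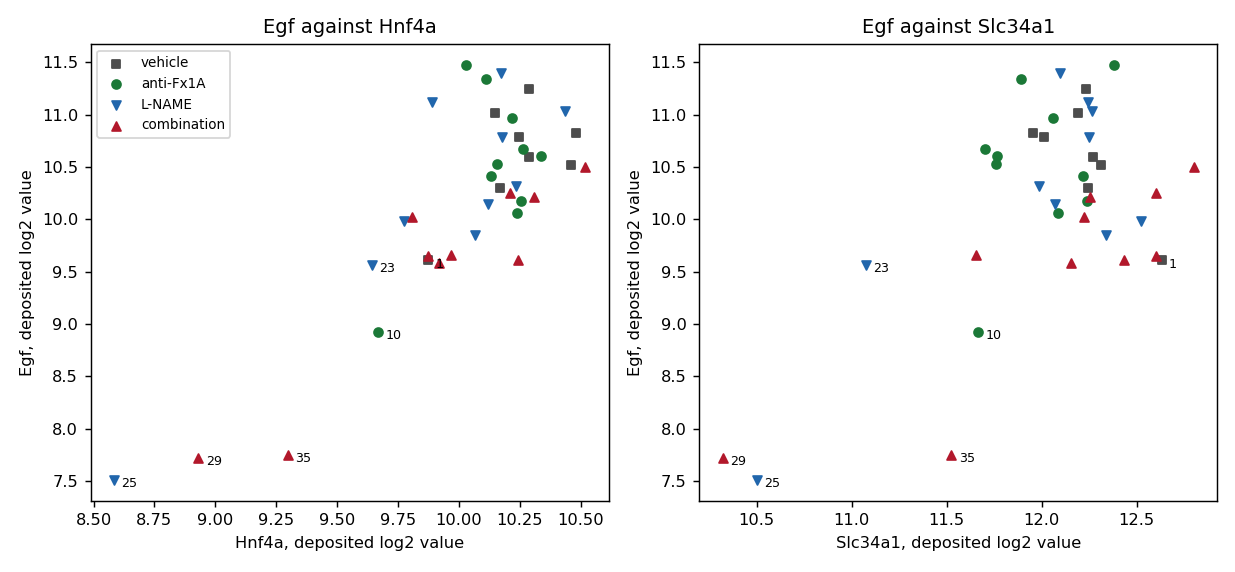
Egf (y axis) against Hnf4a (left) and Slc34a1 (right), deposited log2 values of 38 animals with groups by symbol and colour. Animals 25, 29 and 35 have the lowest Egf values and lie at the lower left of the left panel. In the right panel animals 25 and 29 do so, while animal 35 lies near the middle of the Slc34a1 axis at 11.53. Vehicle animal 1 pairs an Egf value of 9.61 with the highest Slc34a1 value of its group, 12.63.

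Composition of the libraries moved with some of these genes. With group means removed, the share of reads in the 10 most abundant genes correlated with Slc22a6 (r = 0.617, rho = 0.614, permutation p of 9e-05 and 0.00012, adjusted 0.00054 for r over 12 relations; 0.638 without the 2 farthest animals). It also did with Hnf4a (r = 0.549, rho = 0.610, permutation p of 4e-05 and 1e-04, adjusted 0.00048; 0.530 without 2 animals) and Aqp1 (r = 0.447, rho = 0.429, permutation p of 0.00429 and 0.00833, adjusted 0.0172; 0.415 without 2 animals). The relation did not pass for Slc34a1, Kl and Egf (r = 0.297, 0.263 and 0.240, rho = 0.250, 0.231 and -0.0509, adjusted permutation p of 0.217, 0.304 and 0.304). None of the 6 genes passed for depth (lowest adjusted permutation p = 0.304). The part of composition in the correlations between the genes was not tested.

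Each gene was also set against all other genes tested, as a description over the 38 animals. Egf had the most genes alike: 181 of 12598 had r of at least 0.8 with it and 162 had r of -0.8 or less, with the highest at 0.940 and the lowest at -0.935. Hnf4a had 64 and 59 such genes, Aqp1 22 and 12, Slc22a6 20 and 0, Slc34a1 19 and 8, and Kl 0 and 0. Genes with r of at least 0.9 numbered 19 for Egf, 1 each for Hnf4a and Slc34a1 and 0 for the other 3. The table does not name these genes, so they are given by number only. Among the 6 genes the ranks in likeness to each other differed widely. The nearest was Aqp1, which ranked 9 in likeness to Kl (r = 0.617 over the deposited values), while Kl ranked 351 in likeness to Aqp1. Hnf4a ranked 134 in likeness to Egf (0.821), and Egf ranked 43 in likeness to Hnf4a. The farthest was Slc22a6, which ranked 3990 in likeness to Egf (0.242). Kl ranked 2781 in likeness to Egf and 2732 in likeness to Hnf4a.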

How the data were processed

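Libraries were made with the QuantSeq 3' FWD kit from 500 ng of RNA, per the labels' protocols. The submitters' processing notes list edgeR 3.40.2, DESeq2 and Salmon 1.4.0 without roles, and a genome build is not given in the sources used here. Values were deposited on a log2 scale, and the sheet name and the values show a variance-stabilising transform by the authors. Whole reads were recovered by inverting that curve: in every library 100% of values up to 10000 reads lay within 0.05 of a whole number. Columns of no sample numbered 0. No 2 libraries were alike within sampling noise.

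Genes with a mean of at least 5.32, which is 1 log2 unit above the lowest value, were tested with limma 3.58.1 in R 4.3.3. A single model of the 4 group means was used (eBayes with trend and robust estimation, Benjamini-Hochberg adjustment over 12599 genes per comparison, threshold 0.05). The fit was run on simulated data in which genes were independent and normally distributed, each with the same SD in all groups. Those data could not show how the fit behaves with unequal spread or with animals low in several genes. Alternatives were other scalings, filters and variance settings, library weights, voom on recovered reads, and each animal left out. Those without the 3 libraries of lowest weight and adjusted for the read share of the 10 most abundant genes were added after the data were seen. The members and lists were chosen with earlier results of these data known. The rule for named genes took all 6 members, up to 4 genes of each list and the 3 named genes most alike to each member, and it could be applied to the members alone. Since 0 of 30207 identifiers matched a name, the 16 gene lists and markers of other kidney cells were not run, and the tissue label was checked only by the members, read in all 38 libraries.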

Additional observations from a re-analysis of the deposited data

Results flagged for a closer look

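The lowest or highest animal of a group stood apart from the rest in 8 of 24 groups of values (6 genes in 4 groups), by the gap to its neighbour as a share of the group's range. Chance flags about 1 in 20 groups, and the same animals recur, so the 8 are not independent. Combination animal 29 stood apart at 10.32 for Slc34a1 (next 11.53) and at 10.62 for Aqp1 (next 11.52). Anti-Fx1A animal 10 stood apart at 11.13 for Aqp1 (next 11.87) and at 9.669 for Hnf4a (next 10.03). L-NAME animal 25 stood apart at 8.585 for Hnf4a (next 9.644) and at 7.508 for Egf (next 9.562). L-NAME animal 23 stood apart at 5.145 for Kl (next 5.835), a value that rests on 8 reads. Vehicle animal 1 stood apart on the high side, at 12.85 for Aqp1 (next 12.28).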

How the results depend on the processing

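Of the 6 genes, 1 was called in the combination against vehicle. The number was 2 with library weights, without the 3 libraries of lowest weight and after adjustment for the 10 most abundant genes, and 0 to 1 when single animals were left out. Against anti-Fx1A it was 0, and 1 with the filter at 2 log2 units, without trend and robust estimation, with library weights and without the 3 libraries, and 0 to 1 when single animals were left out. In each of these the gene was Egf. Against L-NAME it was 0, and 1 (Egf) without the 3 libraries. Calls over all genes moved as well. In the combination against vehicle they numbered 4507 of 12599, then 5657 with library weights, 5318 without the 3 libraries and 4956 after that adjustment. Against anti-Fx1A they numbered 2428, then 2461 without trend and robust estimation, 3026 with library weights and 3492 without the 3 libraries. With the filter at 2 log2 units they were 2095 of 9006. Against L-NAME they numbered 151, then 1155 without the 3 libraries. Kl does not pass the filter at 2 log2 units and has no value there.

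Uncalled differences near 0 changed sign. With library weights Slc34a1 in the combination against vehicle was 0.0019, Slc34a1 and Slc22a6 in L-NAME against anti-Fx1A were 0.12 and 0.014, and the interaction of Kl was -0.036. Without the 3 libraries Kl in L-NAME against vehicle was 0.023, Slc34a1 was -0.037 in the combination against L-NAME and 0.083 in L-NAME against anti-Fx1A, and the interactions of Aqp1, Hnf4a and Kl were -0.074, -0.045 and -0.094. After that adjustment Aqp1 in the combination against anti-Fx1A was 0.0091, Slc22a6 in L-NAME against anti-Fx1A 0.037 and the interaction of Kl -0.010. With median-centred libraries Hnf4a in the combination against L-NAME was 0.0094. With single animals left out, signs also turned for 16 differences. Against vehicle the ranges were -0.013 to 0.17 (Slc22a6) and -0.24 to 0.082 (Egf) with anti-Fx1A, -0.046 to 0.15 (Slc22a6) and -0.079 to 0.059 (Kl) with L-NAME, and -0.26 to 0.019 (Slc34a1) in the combination. For the combination against anti-Fx1A they were -0.0023 to 0.27 (Slc34a1), -0.11 to 0.12 (Aqp1) and -0.088 to 0.0015 (Kl), and against L-NAME -0.037 to 0.32 (Slc34a1), -0.16 to 0.076 (Aqp1) and -0.15 to 0.11 (Hnf4a). For L-NAME against anti-Fx1A they were -0.11 to 0.12 (Slc34a1), -0.12 to 0.068 (Slc22a6) and -0.047 to 0.13 (Aqp1), and for the interaction -0.045 to 0.21 (Hnf4a) and -0.094 to 0.043 (Kl). The causes were not tested. No paired analysis was possible because the animal numbers run from 1 to 38 with none shared between groups. Depth limits Kl most, at 8 to 52 reads per library.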
